A study of Mus musculus with 227 samples.

Results

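The 33 genes described here encode enzymes of cholesterol and fatty acid synthesis, the regulators that control them and a few lipid carriers, and all 33 were found among the 24388 genes of the table. They were chosen by pathway and by earlier values from these same cells, the levels of the genes in each population and how they vary together between mSSC cells, so what follows is a description and supports nothing on its own. The list holds 7 genes of the mevalonate part of the pathway, 11 of the part from squalene to cholesterol, 4 regulators, 3 genes for carriers and a lipin, and 8 genes of fatty acid synthesis and desaturation. The 18 genes of the first 2 groups are called the sterol enzymes.

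The cells came from long bones of mice of the BL6 strain at postnatal day 3 and were double-sorted by flow cytometry, captured singly on a Fluidigm C1 chip and sequenced as 1 library per cell. All 4 gates required cells to lack CD45 and Ter-119 and to carry AlphaV integrin. Cells labelled mSSC were further gated as Tie2-, Thy-, 6C3-, CD105- and CD200+, and cells labelled CSP as Tie2-, Thy-, 6C3- and CD105+. THY+ cells were gated as Tie2-, Thy+, 6C3- and CD105+, and 6C3+ cells as Thy-, 6C3+ and CD105+, with Tie2 not named. No treatment is given, and the sources used here do not state the number of mice or any pooling. Because no animal or culture is named, each population counted as 1 sample: no test between populations was possible, and SDs and intervals cover cells of 1 sample only.

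Cells were kept when at least 1000 genes had an FPKM (fragment count per kilobase of transcript length and sequencing output) of at least 1, which left 37 mSSC, 11 of 26 CSP, 43 of 72 THY+ and 34 of 92 6C3+ cells. Their median number of detected genes was between 2534 in mSSC and 3033 in CSP cells. Library indexes place mSSC and CSP cells on the same plate and THY+ and 6C3+ cells on a plate each, and spike-in RNA took a median of 0.00117% of FPKM in mSSC and 0.000945% in CSP but 20.8% in THY+ and 18.9% in 6C3+ cells. In every comparison between plates, plate and population therefore cannot be told apart. The transcripts of 2 sort antigens went against the labels of mSSC and CSP. Cd200 was detected in 8 of 37 cells labelled mSSC (21.6%, 95% interval 9.83 to 38.2) and 9 of 11 labelled CSP (81.8%, 48.2 to 97.7), and Eng, which encodes CD105, in 8 of 37 and 0 of 11 cells (0%, upper bound 28.5%). Each direction between these populations rests on the labels. Of the 15 chondrocyte markers the median cell held all 15 in mSSC and in CSP, 10 in 6C3+ and 6 in THY+.

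As background, cholesterol is built from acetyl-CoA through mevalonate, isoprenoid diphosphates, squalene and lanosterol. When membranes run short of sterol, the escort protein encoded by Scap carries the precursors of the SREBP transcription factors (Srebf1, Srebf2) from the endoplasmic reticulum to the Golgi for cleavage, and the freed factor enters the nucleus and switches on the genes of the pathway, whereas Insig1 holds Scap back when sterol is plentiful. SREBP-2 acts mainly on sterol genes and SREBP-1c on fatty acid genes, usually together with NF-Y, a factor that binds the CCAAT box, and with Sp1. In growth plate cartilage, cholesterol also has a role in hedgehog signalling, and inherited defects of the late sterol enzymes disturb skeletal patterning.

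The sequence just before the start of a gene is where such factors act. The 6 promoters shown were picked for holding a CCAAT box, from members that varied together in mSSC cells. RefSeq promoter sequence (build GRCm38.p6) was matched for 26 of the 33 genes, and the 250 bases before the start were searched on both strands. Capitals mark CCAAT, which reads ATTGG on the opposite strand, and, in Hmgcs1 alone, the sterol regulatory element core TCACNCCAC. The stretches are chr13:119690101-119690330 (plus strand) for Hmgcs1, chr5:28071176-28071220 (plus) for Insig1, chr15:82147114-82147158 (plus) for Srebf2, chr9:42264301-42264344 (minus) for Sc5d, chr10:76531523-76531567 (plus) for Lss and chr11:120824582-120824657 (minus) for Fasn. All 6 lie upstream of the gene as GENCODE annotates it.
Hmgcs1: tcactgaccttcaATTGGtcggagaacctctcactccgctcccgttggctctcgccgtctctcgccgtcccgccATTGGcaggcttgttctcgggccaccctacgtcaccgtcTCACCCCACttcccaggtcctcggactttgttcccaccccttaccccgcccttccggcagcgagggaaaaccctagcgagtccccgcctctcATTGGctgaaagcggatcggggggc
Insig1: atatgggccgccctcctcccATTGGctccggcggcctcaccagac
Srebf2: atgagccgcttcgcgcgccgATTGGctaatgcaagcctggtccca
Sc5d: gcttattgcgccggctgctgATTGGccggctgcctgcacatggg
Lss: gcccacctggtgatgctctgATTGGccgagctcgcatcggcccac
Fasn: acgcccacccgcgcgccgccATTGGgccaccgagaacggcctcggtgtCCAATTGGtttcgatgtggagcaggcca

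Hmgcs1 held 3 CCAAT matches, the last starting 45 bases before the gene start, and its TCACNCCAC match lies between the second and the third. Fasn held 3 matches as well, and those 62 and 59 bases before the start overlap on opposite strands. Of the 26 members, 19 held CCAAT, against 37.5% of 27025 genes with a promoter in the same table, and 11 held at least 2 matches, against 11.5% of genes. Among members without CCAAT were Acly, Elovl6 and Acat2. Their correlations with the sterol enzymes in mSSC cells, described below, were 0.56, 0.42 and 0.41. The Sp1 letters GGGCGG were in 21 of 26 members and in 35.4% of genes. TCACNCCAC was in 1 of 26 members and in 1.22% of genes. A match shows only that these letters are present in the window.

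Detection of the genes, counted as FPKM of at least 1, was most frequent in CSP cells. Of 33 members, 22 were detected in at least 50% of CSP cells, where 8.55% of all genes were, against 6 in mSSC (6.0% of all genes), 4 in 6C3+ (6.99%) and 3 in THY+ (6.55%). CSP had the highest share for 30 of the 33 genes. The same count was not made over all genes, and CSP cells also had the highest median number of detected genes (3033). The exceptions were Insig1, highest in mSSC, and Mvk and Scap, highest in 6C3+. A single CSP cell held a median of 12 of the 18 sterol enzymes (range 1 to 16). The median was 6 in mSSC (0 to 14), 4.5 in 6C3+ (1 to 16) and 3 in THY+ (0 to 12), so the ranges of all 4 populations overlapped. In matched cells with 2000 to 3000 genes, of which 3 were CSP, 10 members rather than 22 were detected in at least 50% of CSP cells. Among all cells without the limit on gene number it was 0 in CSP. For these alternatives the share over all genes was not computed.

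**Figure D1:**
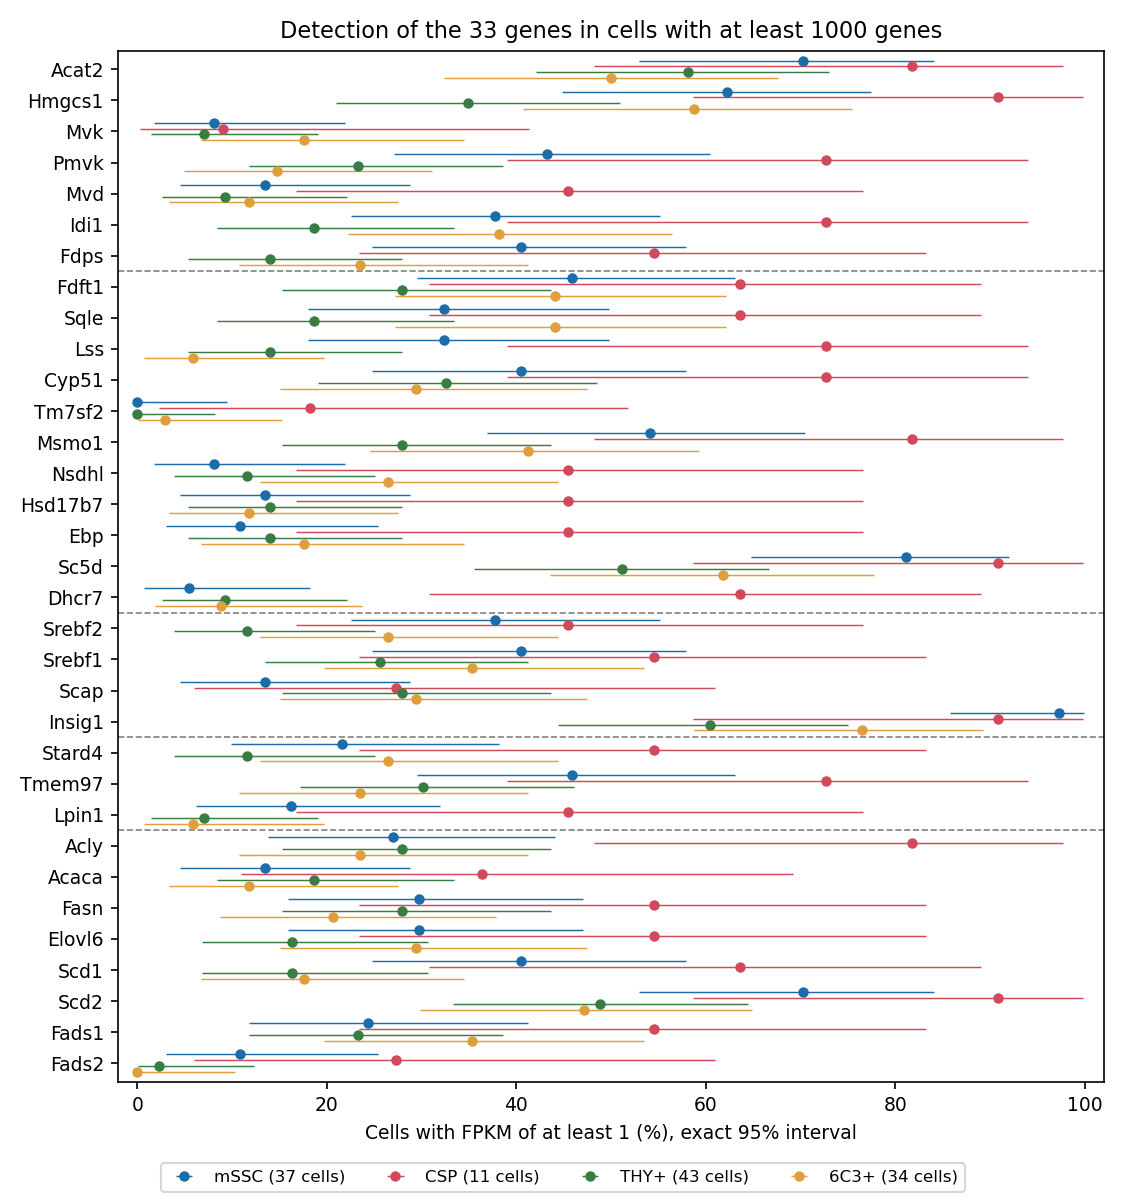
Share of cells with FPKM of at least 1 (x axis, %) for each of the 33 genes (y axis) in the 4 populations, with exact 95% intervals for counting error. Dashed lines part the mevalonate, squalene to cholesterol, regulator, carrier and fatty acid groups. CSP points (11 cells) lie farthest to the right for 30 of 33 genes, with wide intervals. This count was not made over all genes.

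The regulators differed in how widely they were detected. Insig1, the sterol sensor's anchor protein in the endoplasmic reticulum, was the most widely detected member. It was found in 36 of 37 mSSC cells (97.3%, 85.8 to 99.9) and 10 of 11 CSP cells (90.9%, 58.7 to 99.8). In 6C3+ it was found in 26 of 34 cells (76.5%, 58.8 to 89.3), and THY+ had it in 26 of 43 (60.5%, 44.4 to 75). The intervals of mSSC and THY+ did not overlap, with THY+ lower, which held for 1.55% of all genes measured in that comparison and for no other member. The median FPKM of Insig1 over these cells was 416 in CSP, 18.7 in 6C3+ and 11.4 in THY+, and the highest was 1820 in mSSC, 734 in CSP, 477 in 6C3+ and 2260 in THY+, so single cells with high Insig1 occurred in every population. Srebf2, which encodes SREBP-2, was found in 37.8% of mSSC, 45.5% of CSP, 26.5% of 6C3+ and 11.6% of THY+ cells. In each population Srebf2 went undetected in the median cell, and where it was detected its median was 9.9 FPKM in mSSC, 3.62 in CSP, 3.47 in THY+ and 1.91 in 6C3+ cells. Srebf1 was detected in 25.6% (THY+) to 54.5% (CSP) of cells. Scap was detected in 13.5% (mSSC) to 29.4% (6C3+).

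In the mevalonate group, Hmgcs1 and Acat2 were the most widely detected. Hmgcs1, which condenses acetoacetyl-CoA and acetyl-CoA to HMG-CoA, had a lowest, median and highest FPKM of 0, 33.8 and 3540 in mSSC cells, 0, 771 and 2680 in CSP cells, 0, 21.2 and 1310 in 6C3+ cells and 0, 0 and 473 in THY+ cells. All populations held cells without detection. In FPKM as deposited the highest THY+ cell lay below the median CSP cell. With each cell rescaled without its spike-ins, the highest THY+ cell lay slightly above it. Acat2, the cytosolic acetyl-CoA acetyltransferase, has a near copy in Acat3, so its values are uncertain where reads were split between them. It was detected in 70.3% of mSSC, 81.8% of CSP, 58.1% of THY+ and 50% of 6C3+ cells, at a median of 1.88 FPKM in the 6C3+ cells that had it and 23.6 in those of CSP. Pmvk, the phosphomevalonate kinase, was detected in 43.2% of mSSC, 72.7% of CSP, 23.3% of THY+ and 14.7% of 6C3+ cells. Idi1, which isomerises isopentenyl diphosphate, and Fdps, which makes farnesyl diphosphate, were detected in 37.8% and 40.5% of mSSC cells and in 18.6% and 14% of THY+ cells. Mvd, the decarboxylase, reached 45.5% in CSP and at most 13.5% elsewhere. Mvk, the mevalonate kinase, was below 20% in every population and ranged from 6.98% in THY+ to 17.6% in 6C3+.

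Among the enzymes from squalene to cholesterol, Sc5d, the lathosterol oxidase, was the most widely detected. Its lowest, median and highest FPKM were 0, 84.6 and 664 in mSSC cells. In THY+ cells they were 0, 2.27 and 368, and in 6C3+ cells 0, 3.86 and 214. In cells that had it, the median was 198 in CSP, 37.2 in THY+ and 11.5 in 6C3+, although the ranges of all 4 overlapped. Msmo1, a methylsterol oxidase, was detected in 54.1% of mSSC, 81.8% of CSP, 41.2% of 6C3+ and 27.9% of THY+ cells. Fdft1 (squalene synthase), Sqle (squalene epoxidase) and Cyp51 (lanosterol demethylase) were each detected in 32.4% to 45.9% of mSSC cells and in 63.6% to 72.7% of CSP cells. Lss, which folds oxidosqualene into lanosterol, was detected in 72.7% of CSP but 5.88% of 6C3+ cells.

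The last reductase of the pathway, Dhcr7, showed the widest gap between CSP and the rest of its group. It was found in 7 of 11 CSP cells (63.6%, 30.8 to 89.1), 2 of 37 mSSC cells (5.41%, 0.661 to 18.2), with 4 of 43 in THY+ (9.3%, 2.59 to 22.1) and 3 of 34 in 6C3+ (8.82%, 1.86 to 23.7). Its CSP interval overlapped none of the others. Intervals apart with CSP above mSSC held for 1.02% of the genes compared. Against THY+ and 6C3+ cells, which lie on other plates, the share over all genes was not computed. Nsdhl, Hsd17b7 and Ebp, which act on the sterol ring before the last steps, were each found in 5 of 11 CSP cells. In mSSC they were found in 3, 5 and 4 of 37 cells. Tm7sf2, a sterol reductase, was found in 2 CSP cells and 1 6C3+ cell and in 0 of 37 mSSC (upper bound 9.49%) and 0 of 43 THY+ cells (upper bound 8.22%).

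Of the fatty acid genes, Scd2, a stearoyl-CoA desaturase, was detected in 70.3% of mSSC, 90.9% of CSP, 48.8% of THY+ and 47.1% of 6C3+ cells. Its lowest, median and highest FPKM were 0, 19.8 and 977 in mSSC and 0, 200.0 and 755 in CSP cells. Its paralog Scd1 was less widespread, at 40.5% of mSSC, 63.6% of CSP, 16.3% of THY+ and 17.6% of 6C3+ cells. How reads were shared between these similar genes is not given in the sources used here. Acly, which makes cytosolic acetyl-CoA from citrate, was found in 9 of 11 CSP cells (81.8%, 48.2 to 97.7) and in 23.5% to 27.9% of the cells of the other populations. Fasn (fatty acid synthase) and Elovl6 (an elongase) were each found in 29.7% of mSSC and 54.5% of CSP cells. Acaca, the acetyl-CoA carboxylase, was found in 11.8% to 36.4% of cells, and the desaturase Fads1 in 23.3% to 54.5%. Fads2 was found in 3 CSP cells, 4 mSSC cells and 1 THY+ cell and in 0 of 34 6C3+ cells (upper bound 10.3%). The sterol transfer gene Stard4, the sterol-responsive membrane protein gene Tmem97 and the phosphatidate phosphatase Lpin1 were detected in 54.5%, 72.7% and 45.5% of CSP cells and in 21.6%, 45.9% and 16.2% of mSSC cells.

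For comparisons between populations, FPKM was rescaled to 1000000 over the genes of each cell without spike-ins, and the level is log2(rescaled FPKM + 1) averaged over cells. A gene counted as higher or lower at a difference of at least 1 on this scale. Only genes that 10% or more of the cells of either population held were compared, and these are called measured. A lower mean can come from fewer cells with the transcript or from less transcript per cell, and the mean level does not tell these apart. No difference has a replicate check.

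Cells labelled CSP had higher mean levels of most members than cells labelled mSSC from the same plate. Of 32 members measured in this comparison 25 were higher by at least 1, where 21.5% of all genes were, and 0 were lower, where 8.49% of all genes were. The median difference was 1.87 over the members and 0.19 over all 8230 genes. By group, 6 of 6 mevalonate genes, 10 of 11 from squalene to cholesterol, 3 of 3 carrier and lipin genes, 5 of 8 fatty acid genes and 1 of 4 regulators were higher. Hmgcs1 had a mean level of 8.85 ± 3.26 in CSP cells and 4.98 ± 4.47 in mSSC cells (SD over 11 and 37 cells), a difference of 3.87. Acly differed by 3.56, Scd2 by 3.24, Dhcr7 by 3.13 and Ebp by 2.91. For each of these 5 genes some cells of both populations lacked detection. Insig1 (7.75 and 7.54) and Srebf2 (1.6 and 1.4) differed by 0.21 and 0.20, which is about the median of all genes. The detection intervals of the 2 populations were apart, with CSP higher, for 2 of the 32 members, Dhcr7 and Acly, as they were for 1.02% of the 8230 genes.

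Number of detected genes and other markers moved with this difference. Among cells with at least 3000 genes, 6 CSP cells had a sterol enzyme level, the mean over the 18 enzymes, of 4.51 to 6.86 (median 5.95) and 9 mSSC cells 0.15 to 6.11 (median 3.42), and the member median difference was 1.88 with 25 of 33 members higher, beside a median of -0.06 over all genes and 22.2% of them higher. Among cells with 2000 to 3000 genes the levels were 1.71 to 3.89 (median 1.87) in 3 CSP cells and 0.32 to 5.24 (median 2.04) in 24 mSSC cells. The member median difference there was 0.58 with 14 of 29 higher, beside a median of -0.06 over all genes and 30% of them higher. Without the limit on gene number it was -0.06 with 4 of 31 higher, when the median of all genes was -0.58 and 1.27% of them were higher. Within the 6 index rows (libraries that share a row index on the plate) that hold cells of both populations the median was 3.07, beside 0.33 over all genes. Leaving out each CSP cell in turn gave medians of 1.54 to 2.35 and 24 to 27 genes higher. Of the 15 chondrocyte markers, 9 were higher in CSP by at least 1 (median 1.18), with a mean level over the list of 2.29 to 12.34 in CSP and 0.40 to 11.73 in mSSC cells, and of 9 osteoblast markers 6 were measured and 5 were higher. Of the 15 proliferation markers 11 were at 0 in CSP cells, and all 15 were found in some mSSC cell. Mki67 and Top2a were each found in 0 of 11 CSP cells (upper bound 28.5%) and 5 of 37 mSSC cells (13.5%). Found in both were Pcna (6 of 11 CSP and 17 of 37 mSSC cells), Rrm2 (2 and 4), Tyms (1 and 3) and Mcm2 (1 and 3). The part of these in the member differences was not tested. Of 7 adipocyte markers, Adipoq, Plin1, Cidec, Lep and Cfd were at 0 in all 4 populations. Fabp4 was found in 7 of 37 mSSC, 1 of 11 CSP, 7 of 43 THY+ and 3 of 34 6C3+ cells. Pparg was found in 2 mSSC and 4 THY+ cells. Of 7 endothelial markers, Pecam1, Kdr and Tie1 were at 0 in all 4 populations. Esam was found in 15 of 43 THY+ cells, 2 mSSC cells and 1 6C3+ cell. Cdh5, Egfl7 and Emcn were each found in at most 1 cell of any population.

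**Figure D2:**
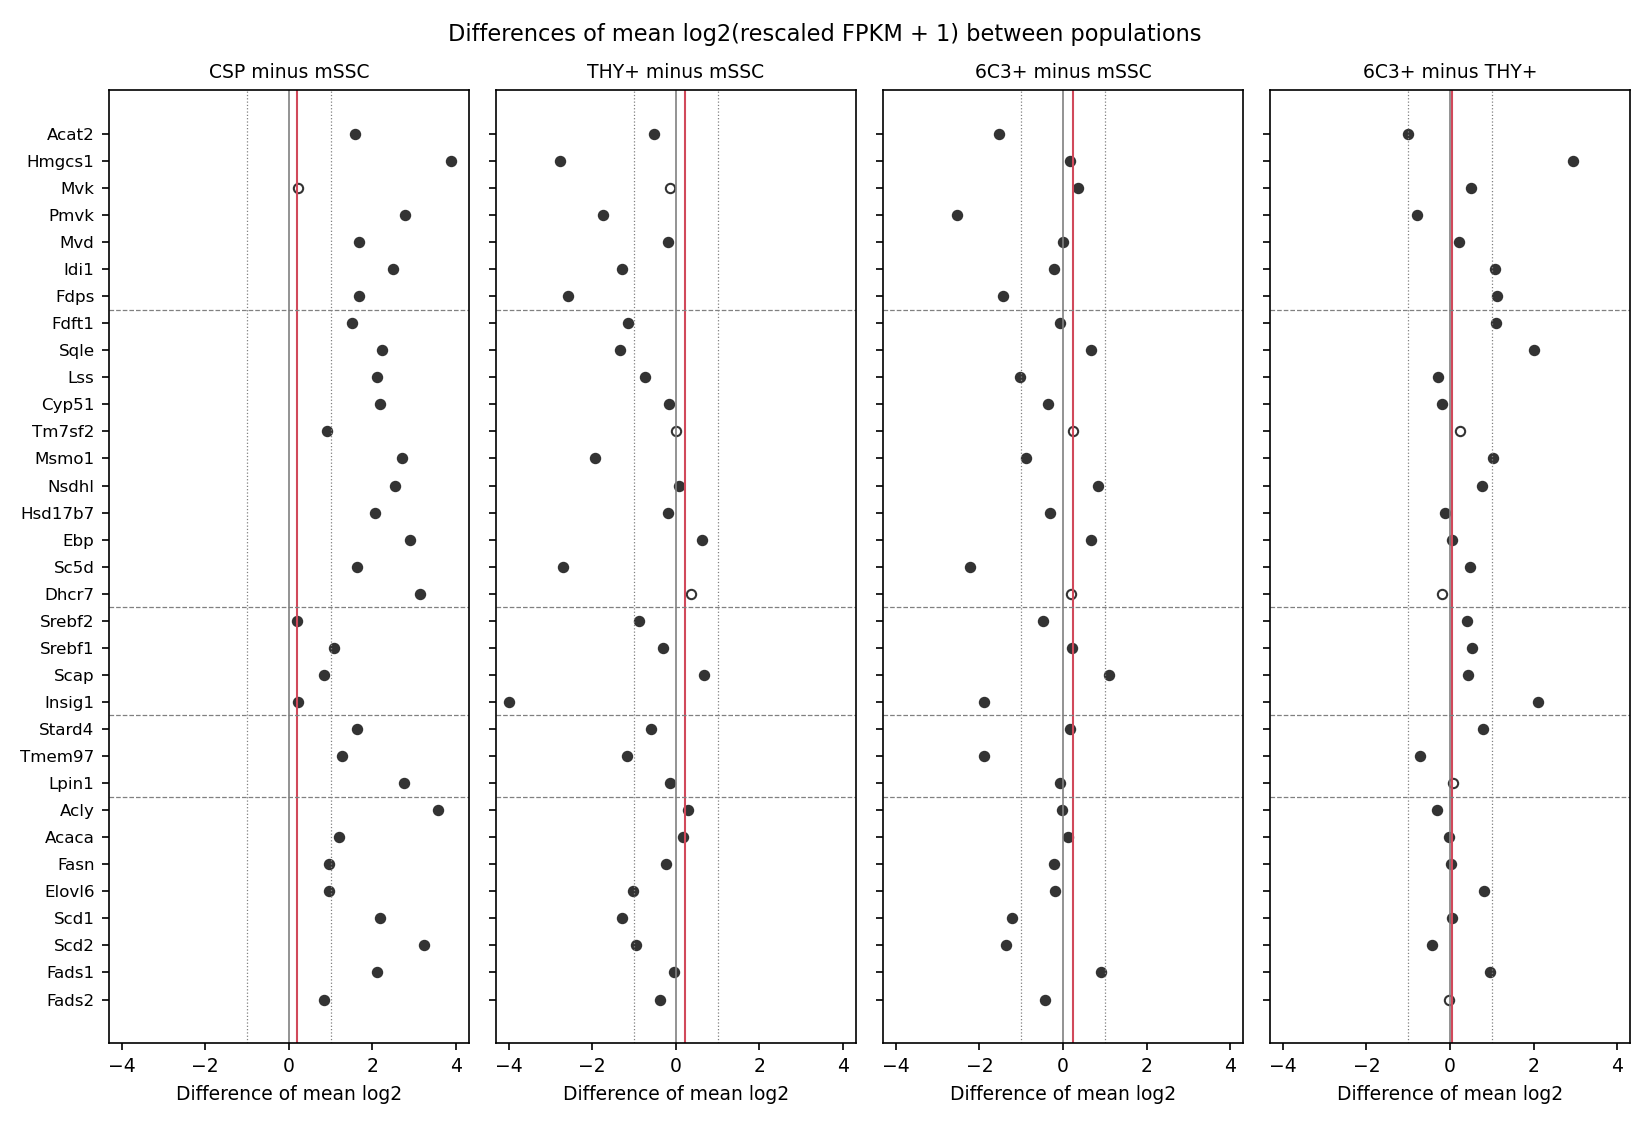
Difference of mean log2(rescaled FPKM + 1) for each of the 33 genes (points) in the 4 comparisons. Open points are genes detected in under 10% of cells of both populations, dotted lines mark -1 and 1, and the red line is the median of all genes. In CSP minus mSSC, 25 genes lie beyond 1 and none below -1, and in THY+ minus mSSC 12 lie below -1.

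THY+ cells had lower mean levels than mSSC cells for many members. Of 30 members measured, 12 were lower by at least 1, where 8.37% of all genes were, and 0 were higher, where 13.2% of all genes were. The median difference was -0.66 over the members and 0.22 over all genes. Insig1 had a mean level of 3.55 ± 3.60 in 43 THY+ cells and 7.54 ± 2.32 in 37 mSSC cells, a difference of -3.99. Hmgcs1 differed by -2.78, Sc5d by -2.71, Fdps by -2.57, Msmo1 by -1.93 and Pmvk by -1.74. Among the fatty acid genes 2 of 8 were lower, Scd1 at -1.28 and Elovl6 at -1.03, and Acly (0.30), Acaca (0.16) and Fads1 (-0.04) lay near 0. In cells with 2000 to 3000 genes 7 of 28 members were lower, where 13.4% of all genes were. All 15 chondrocyte markers were lower in THY+ cells (median -6.56) and 6 of 8 pericyte and smooth muscle markers higher. Of 6 housekeeping genes 3 were lower (median -0.73), a median as low as that of the members, and of 12 dissociation stress genes 6 were lower (median -1.12). The part of these in the member differences was not tested.

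Between 6C3+ and mSSC cells the members differed less. Of 31 members measured, 9 were lower in 6C3+ by at least 1, where 6.23% of all genes were, and 1 was higher, Scap at 1.11, where 15% of all genes were. The median was -0.21 over members and 0.25 over all genes. The lowest were Pmvk (-2.53), Sc5d (-2.23), Insig1 (-1.89) and Tmem97 (-1.88), whereas Hmgcs1 differed by 0.16 and Fdft1 by -0.06. Without the limit on gene number 16 of 29 members were lower and the median was -1.07, beside a median of -0.61 over all genes and 32.7% of them lower. All 15 chondrocyte markers were lower here too (median -5.08). Of 6 housekeeping genes 5 lay below 0 and 1 was lower by at least 1 (median -0.47), and of 12 dissociation stress genes 7 were lower (median -1.29). Their part was not tested.

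Between 6C3+ and THY+ cells, whose spike-in shares were alike but whose plates differed, 6C3+ cells had 7 of 29 members higher than THY+ cells by at least 1, where 8.62% of all genes were, and 1 lower, where 5.38% of all genes were. The median difference was 0.44 over members and 0.04 over all genes. Hmgcs1 was at 5.15 ± 4.68 in 34 6C3+ cells and 2.21 ± 3.09 in 43 THY+ cells, a difference of 2.94. Insig1 differed by 2.10 and Sqle by 2.02, followed by Fdps (1.13), Fdft1 (1.09), Idi1 (1.07) and Msmo1 (1.04). Acat2 was the gene that was lower, at -1.0. With FPKM as deposited 2 rather than 7 members were higher, where 1.85% of all genes were. It was 4 without the THY+ cells that hold 4 or more of 8 pericyte and smooth muscle markers, where 10.9% of all genes were, and 0 without the limit on gene number, where 0.2% were. Of the 15 chondrocyte markers 11 were higher in 6C3+ (median 2.15), and 6 of 8 pericyte and smooth muscle markers were lower. Of 6 housekeeping genes 5 lay above 0 and 1 was higher by at least 1, with a median of 0.50 that is as high as the members' median, and of 12 dissociation stress genes 4 were lower and 1 higher (median -0.46). Their part was not tested.

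Genes of neighbouring lipid functions did not all follow the members from mSSC to CSP. In this comparison 21.5% of all genes were higher and 8.49% lower, and the lists are short. Of 20 further fatty acid and lipid synthesis genes 16 were measured, and 8 were higher and 1 lower in CSP. The leading ones were Me1, the malic enzyme that supplies NADPH, at 2.71, the acyl-CoA synthetase Acsl3 at 2.57 and the elongase Elovl5 at 1.83. Of 12 further sterol pathway genes 11 were measured, and 4 were higher and 1 lower. Among them were Mbtps1, the first protease that cleaves SREBP (2.22), and Acat1 (2.14). Mbtps1 was also higher than in mSSC in THY+ (2.48) and 6C3+ cells (2.04), where 0 and 1 of the members were. Of 16 genes of sterol uptake, storage and efflux 13 were measured, 3 were higher, near the share over all genes, and 2 lower. The HDL receptor gene Scarb1 was at 3.09. Of 6 caveolin and lipid droplet genes 5 were measured, 0 were higher and 2 lower, Fabp5 (-1.31) and Plin3 (-1.24). In THY+ cells Cav1, the main protein of caveolae, was at a mean level of 7.22 against 1.56 in mSSC.

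Within the mSSC population, members varied together from cell to cell, with higher correlations than pairs of genes in general. For each gene with a detection share of at least 20%, the Spearman correlation over cells with the mean level of the other sterol enzymes was computed. Only sterol enzymes with that share entered this mean, 11 in mSSC, 16 in CSP, 7 in THY+ and 10 in 6C3+ cells. Correlations with the sterol enzyme level below use this mean, unless other cells or limits are stated. These are descriptions over 37 cells whose libraries share an index plate. The cells were not all alike: they held 1 to 15 of 15 chondrocyte markers and 0 to 8 of 8 pericyte and smooth muscle markers. No mSSC cell was left out by its markers. Of 22 members that passed the limit on detection, 19 had a correlation of at least 0.4, where 4.12% of 4341 genes had. Over the 55 pairs of the 11 sterol enzymes the median correlation was 0.34 (range -0.17 to 0.70), 19 pairs reached 0.4, where 1.39% of all gene pairs did, and the median over all gene pairs was 0.03. Hmgcs1 (0.77), Msmo1 (0.75), Scd2 (0.71), Sqle (0.60), Idi1 (0.59) and Acly (0.56) correlated most. Insig1 (0.53), Srebf2 (0.48) and Fasn (0.41) followed. Below 0.4 were Tmem97 (0.29), Pmvk (0.13) and Srebf1 (-0.05). The closest pair was Hmgcs1 and Msmo1, at 0.70, with 19 of 37 cells holding both. The mean level over all 18 sterol enzymes was 0 in the lowest mSSC cell and 6.11 in the highest, with a median of 2.06. At least 9 of the 18 sterol enzymes were held by 9 of 37 cells.

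**Figure D3:**
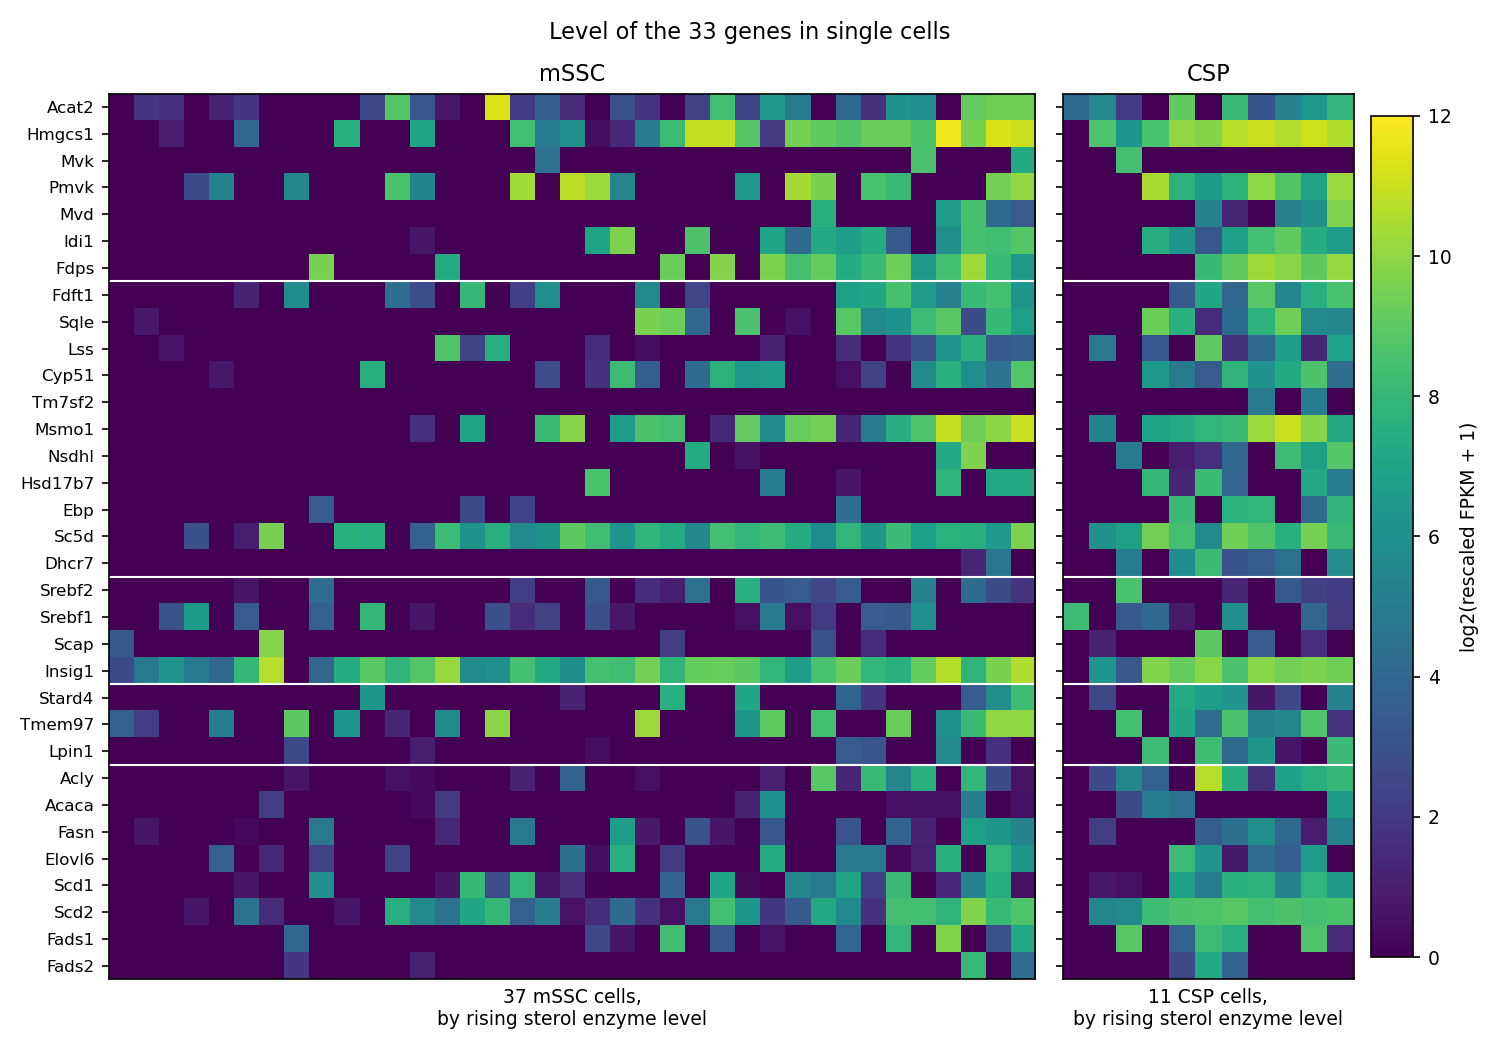
Level of the 33 genes (rows) in each mSSC cell (37 columns) and CSP cell (11 columns), as log2(rescaled FPKM + 1) by colour, with cells ordered by the mean of the 18 sterol enzymes. White lines part the gene groups. By this ordering sterol genes fill in toward the right; Insig1 and Sc5d are present across most mSSC cells.

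Part of this pattern moved with the number of detected genes and with the index row. The sterol enzyme level correlated with the number of detected genes at 0.53 in mSSC, 0.75 in CSP, 0.32 in THY+ and 0.16 in 6C3+ cells. This level covers the enzymes with a detection share of at least 20%, not the whole list of sterol enzymes. With gene number regressed out of the ranks, 10 of 22 mSSC members were at 0.4 or more, where 1.8% of genes were, and the median pair correlation was 0.25. With levels centred within index rows it was 7 of 22 members, where 3.43% of genes were, and a median of 0.24. In the 24 mSSC cells with 2000 to 3000 genes it was 6 of 20 members, where 4.46% of genes were, and a median of 0.16 beside 0.00 over all pairs. Without the highest and the lowest cell 13 of 22 members were at 0.4 or more, where 3.9% of genes were. In mSSC the level correlated at 0.36 with the chondrocyte and the osteoblast markers, 0.33 with the housekeeping genes and 0.28 with the dissociation stress genes. It was 0.27 with the sort antigens, 0.25 with the proliferation genes and -0.32 with the adipocyte markers. The osteoblast and adipocyte values rest on few cells, since the median mSSC cell held 0 of the 9 osteoblast and 0 of the 7 adipocyte markers.

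**Figure D4:**
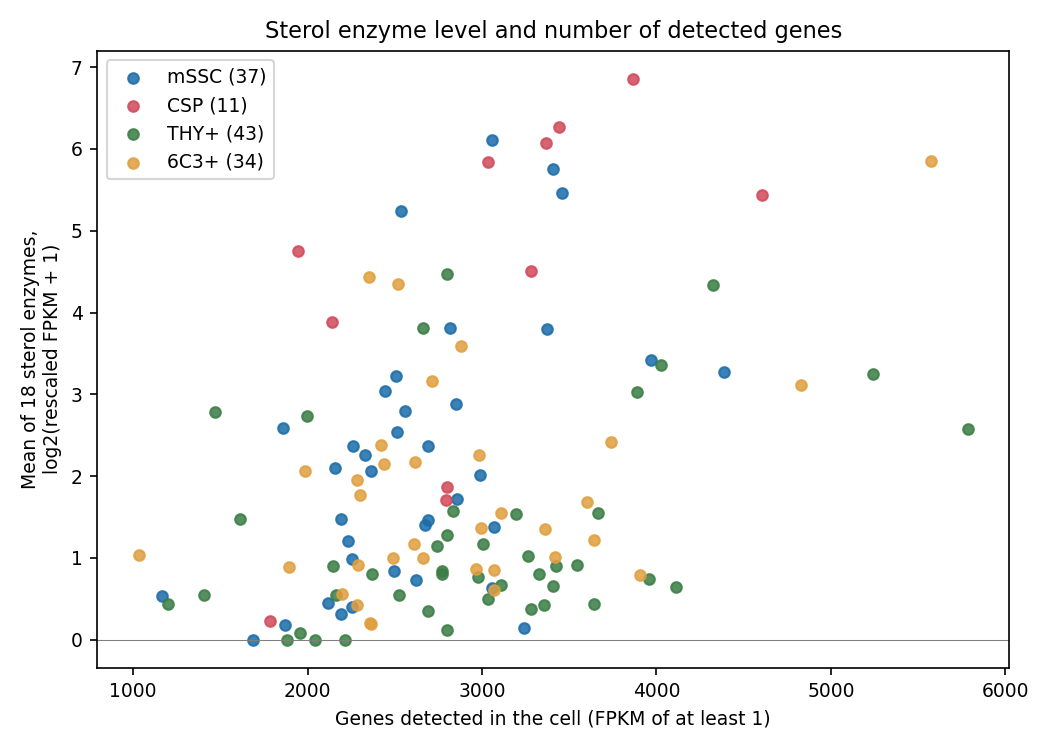
Mean level of the 18 sterol enzymes (y axis, log2(rescaled FPKM + 1)) against the number of genes detected (x axis) in each cell, coloured by population. Among cells with at least 3000 genes the 6 CSP cells sit between 4.51 and 6.86, and mSSC cells spread from 0.15 to 6.11.

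In CSP, over 11 cells, 20 of 31 members reached 0.4, but so did 25.8% of 4775 genes, whose median correlation was 0.18. With gene number regressed out it was 15 of 31 members and 13.6% of genes. The median over 120 sterol enzyme pairs was 0.37, beside 0.06 over all pairs, and 15.3% of all pairs reached 0.4. Fdps (0.85), Hmgcs1 (0.84), Fdft1 (0.82) and Msmo1 (0.80) were highest, and Srebf1 lowest at -0.32. The CSP sterol enzyme level also correlated at 0.88 with the dissociation stress genes and at 0.65 with the chondrocyte markers, and their part was not tested. In THY+ cells 2 of 15 members reached 0.4, Msmo1 (0.64) and Insig1 (0.53), where 1.71% of genes did, and the median pair correlation was 0.20 beside 0.05. The THY+ sterol enzyme level correlated at 0.50 with the chondrocyte, 0.39 with the erythroid and 0.38 with the osteoblast markers. The erythroid value rests on few cells, since only Hbb-bs and Alas2 of the 5 markers were detected, each in 1 of 43 cells. In 6C3+ cells it was 6 of 21 members, where 2.05% of genes did, led by Sc5d (0.55), Fdft1 (0.53), Cyp51 (0.49) and Hmgcs1 (0.48), with a median of 0.23 beside 0.04. The 6C3+ level correlated at 0.40 with the osteoblast markers, 0.33 with the chondrocyte markers and 0.32 with the proliferation genes. The osteoblast values also rest on few cells, since the median cell of THY+ and of 6C3+ held 0 of the 9 markers. The part of these lists in the correlations was not tested. Of all gene pairs, 1.64% reached 0.4 in THY+ and 2.23% in 6C3+ cells, against 3 of 21 and 7 of 45 sterol enzyme pairs. Hmgcs1 ran with Msmo1 in mSSC (0.70), CSP (0.89) and THY+ (0.52), but the pair was not among the 10 closest in 6C3+ cells. The fatty acid gene level followed the sterol enzyme level at 0.82 in mSSC and 0.65 in CSP, and at 0.24 in THY+ and 0.26 in 6C3+ cells. For the 20 further fatty acid and lipid synthesis genes outside the members it was 0.40 in mSSC, 0.74 in CSP, 0.23 in THY+ and 0.27 in 6C3+. Only in mSSC was the value of the fatty acid members clearly the higher. Differences between these correlations were not tested.

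**Figure D5:**
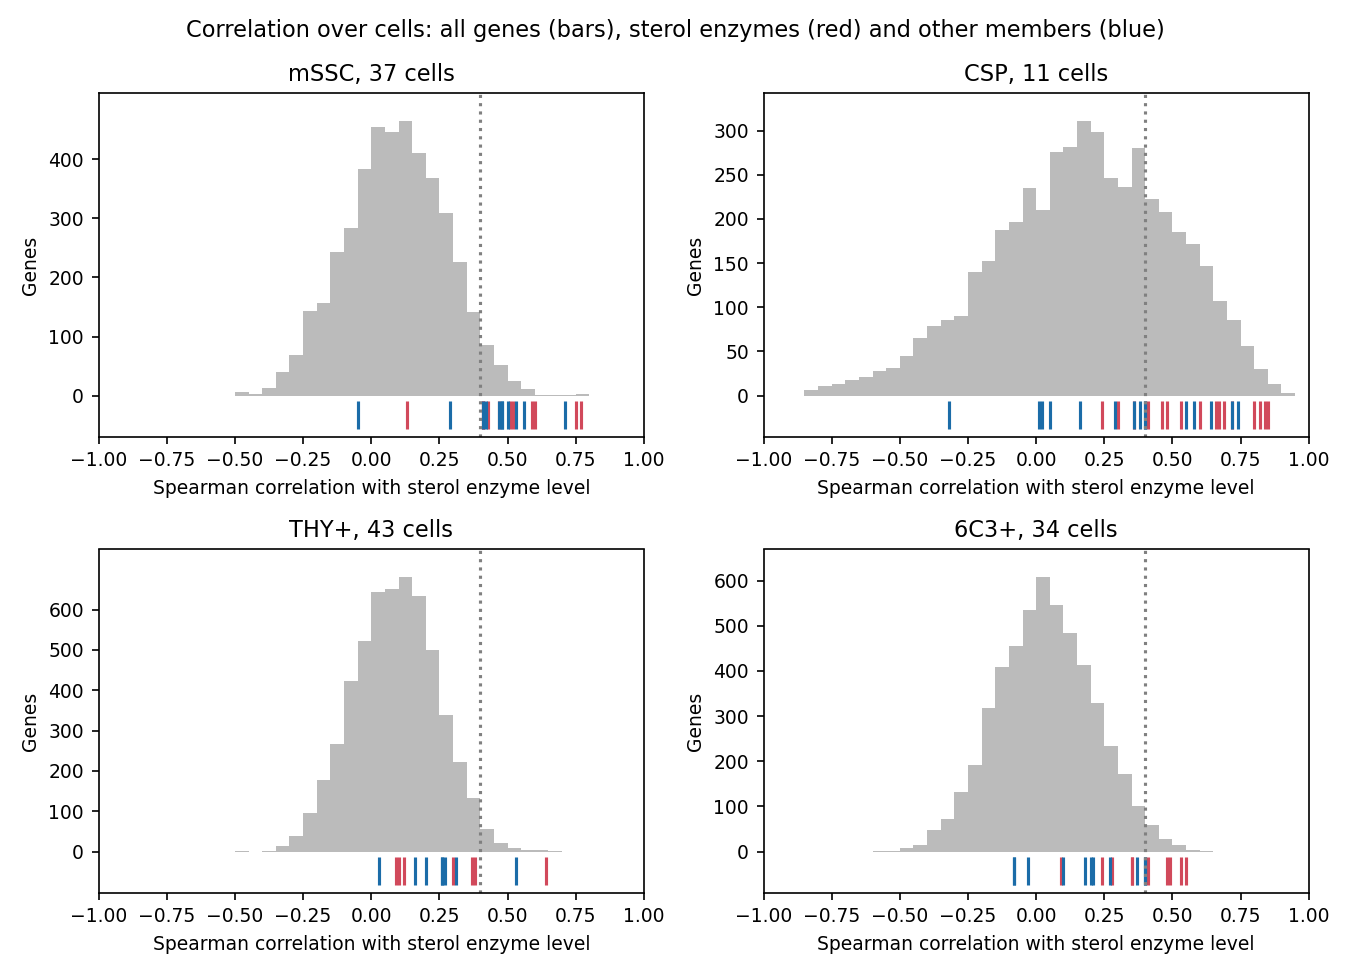
Number of genes (grey bars, y axis) by Spearman correlation over cells with the sterol enzyme level (x axis) in each population, with marks below for sterol enzymes (red) and other members (blue), each enzyme being left out of its own mean. The level is the mean over sterol enzymes detected in at least 20% of the cells. The dotted line is at 0.4. In mSSC 19 of 22 members lie at or to the right of it, and in THY+ 2 of 15.

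Genes outside the list that lay near the sterol enzyme level in mSSC cells were Ifrd1 (0.61), Ergic1 (0.59), Anp32e, Atp6v1e1 and H2afz (each 0.58), Tmem88, Dmtf1 and Lect1 (each 0.57) and Wisp3 (0.56). Lect1, now named Cnmd, is a cartilage marker and was detected in 33 of 37 mSSC cells. Of these 9 genes, Atp6v1e1 and Tmem88 were also at 0.4 or more in CSP (0.69 and 0.66), where 25.8% of all genes were. That is near the share over all genes, since Anp32e and Wisp3 fell below the limit on detection in CSP. None of those above this limit reached 0.4 in THY+ or 6C3+ cells, where 1.71% and 2.05% of all genes did. Among the lowest in mSSC were Reep3, Trim8 and C1galt1c1 (each -0.48) and Gab1 (-0.47). Of the further sterol pathway genes 0 of 6 reached 0.4 in mSSC, of the further fatty acid and lipid synthesis genes 0 of 6, of the caveolin and lipid droplet genes 0 of 3, and of the uptake, storage and efflux genes 1 of 8, Scarb1. The share over all genes was 4.12%, so counts of 0 or 1 in lists this short do not set them apart from other genes. In CSP the counts of these lists, in the same order, were 2 of 9, 5 of 11, 0 of 2 and 2 of 6, where 25.8% of all genes reached 0.4.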

How the data were processed

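Single-cell libraries (SMARTer and Nextera XT, with ERCC spike-ins, per the labels' protocols) were used as FPKM values deposited by the authors in 1 table of 24388 genes and 92 spike-ins. Per the submitters' processing notes, the build was mm10 and SAMtools was used. The sources used here name no aligner, FPKM program or annotation. The values are estimated abundances without recoverable reads, so depth per cell is unknown, and a gene at 0 may still be present in the cell. Columns were matched to cells by title, with 0 unmatched and 0 identical.

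Each population counted as 1 sample, so no p-value was computed. Intervals on shares are exact Clopper-Pearson 95% limits and hold counting error alone. FPKM was rescaled to 1000000 per cell without spike-ins, since their share differs between plates, and a pseudocount of 1 was added before log2. The 4 comparisons used differences of mean log2, and co-variation used Spearman correlations, both over all genes that passed the stated limits. Members detected in at least 20% of cells of any population were described, with the 10 highest and 5 lowest other genes by correlation in mSSC cells and up to 3 genes per related list with the largest difference; unnamed gene models, pseudogenes and ribosomal protein genes were left out, and 3 genes that this rule selects are not reported here. The members, lists and rules were chosen with earlier results of these data known. The calculations were tested on simulated data. Markers matched except 1 erythroid gene, and Cnmd and Snorc were found under older symbols. The lists were chondrocyte, osteoblast, adipocyte, pericyte and smooth muscle, endothelial, myeloid, erythroid, sort antigen, proliferation, dissociation stress and housekeeping genes. Coordinates are those of GRCm38.p6 (RefSeq) and GENCODE for mm10. Software was pandas 2.3.3, numpy 2.4.6, scipy 1.17.1 and matplotlib 3.10.9 under Python 3.11.15. Alternatives were FPKM as deposited, pseudocounts of 0.1 and 10, the log2 of the mean, other limits on cells and genes, other detection thresholds, Pearson correlation, gene number regressed out and centring within index rows.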

Additional observations from a re-analysis of the deposited data

How the results depend on the processing

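Values depended most on which cells were used. In all cells the CSP minus mSSC median was -0.06, beside -0.58 over all genes. There 4 members were higher, where 1.27% of all genes were. Of the called members 13 changed sign: Acat2 -0.88, Hmgcs1 -0.58, Pmvk -0.81, Idi1 -0.40, Fdps -1.05, Fdft1 -0.56, Sqle -0.11, Msmo1 -0.91, Sc5d -2.57, Srebf1 -0.16, Stard4 -0.02, Tmem97 -1.35 and Scd2 -0.06. The 6C3+ minus mSSC median was -1.07 with 16 lower, beside -0.61 over all genes and 32.7% of them lower. The 6C3+ minus THY+ median was -0.01 with 0 higher, beside -0.43 over all genes and 0.2% of them higher. In all cells 0 members were detected in at least 50% of CSP, THY+ or 6C3+ cells. Median pair correlations in all cells were 0.63 in CSP, 0.38 in THY+ and 0.34 in 6C3+, where the medians over all gene pairs were 0.46, 0.22 and 0.38. In THY+ 5 of 6 members were at 0.4 or more, as were 41.8% of genes. In cells with 2000 to 3000 genes the CSP minus mSSC median was 0.58, beside -0.06 over all genes. There 14 members were higher, where 30% of all genes were. Of the called members 8 changed sign: Fdps -2.85, Fdft1 -1.74, Cyp51 -0.15, Msmo1 -0.13, Ebp -0.36, Stard4 -0.05, Tmem97 -0.05 and Scd1 -1.42. In these cells 7 members were lower in THY+ than mSSC, where 13.4% of all genes were, and 10 were detected in at least 50% of CSP cells. The mSSC median pair correlation was 0.16, beside 0.0 over all gene pairs. In mSSC 6 members were at 0.4 or more, where 4.46% of genes were, and in THY+ 1 member, where 6.64% of genes were. With at least 2000 genes 4 THY+ and 10 6C3+ members were at 0.4 or more, where 2.87% and 2.41% of genes were.

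With a pseudocount of 0.1 the CSP minus mSSC median was 2.90, beside 0.37 over all genes. There 11 members were higher in 6C3+ than THY+, where 16.1% of all genes were. With 10 the CSP minus mSSC median was 1.08, beside 0.05 over all genes, and 3 members were higher in 6C3+ than THY+, where 2.52% of genes were. There 6 (THY+) and 5 (6C3+) members were lower than in mSSC, where 3.85% and 2.51% of genes were. With the log2 of the mean the CSP median was 1.12, beside -0.34 over all genes, with Acat2 at -0.41 and Tmem97 at -0.53. With FPKM as deposited 2 members were higher in 6C3+ than THY+, where 1.85% of all genes were. Alternatives chosen after seeing the data gave 3.07 for the CSP median within index rows, beside 0.33 over all genes. Without THY+ cells rich in pericyte markers they gave 4 members higher in 6C3+, where 10.9% of genes were. Leaving out each CSP cell in turn gave medians of 1.54 to 2.35 with 24 to 27 members higher, with no value over all genes computed. The other such alternatives were cells with at least 3000 genes, correlations in cells with 2000 to 3000 genes and correlations without the highest and lowest cell. At a detection threshold of 10 FPKM, 1 member in THY+ and 2 in 6C3+ were detected in at least 50% of cells. For detection counts under the alternatives, the share over all genes was not computed.

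For correlations, Pearson's gave 5 members at 0.4 or more in THY+ and 10 in 6C3+, where 2.28% and 2.14% of genes were. With gene number regressed out it was 10 members in mSSC, where 1.8% of genes were. The CSP median pair correlation was then 0.22, beside -0.0 over all gene pairs. With centring within index rows 7 members were at 0.4 or more in mSSC (median pair correlation 0.24) and 4 in THY+, where 3.43% and 3.31% of genes were. With genes detected in at least 10% of cells it was 8 in THY+, where 1.86% of genes were. With at least 40% it was 8 of 13 in mSSC, where 5.6% of genes were. With 40% fewer than 3 sterol enzymes were left in THY+, and 3 CSP cells with 2000 to 3000 genes were too few, so these gave no correlations. No paired analysis was possible because the labels give no replicate numbers and no test was made. Depth is unknown, so the precision of low values cannot be stated.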
